A study of Arabidopsis thaliana with 18 samples.

Results

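Alpha-expansins are cell wall proteins that loosen the wall of growing plant cells at acid pH without cutting its polymers, so that turgor can stretch it. Proton pumps of the plasma membrane (AHA) acidify the wall, small auxin-induced proteins of the SAUR19 family activate those pumps, and xyloglucan endotransglucosylase/hydrolases (XTH) cut and rejoin the xyloglucan that ties cellulose together. Within the family, EXPA1 acts in guard cells during stomatal opening, EXPA10 in the growth of leaves and petioles, and EXPA5 responds to brassinosteroid. EXPA1 and EXPA8 are bound at their promoters by HBI1, a growth-promoting transcription factor that its partner IBH1 holds in check.

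The 10 genes described are EXPA1 (AT1G69530), EXPA3 (AT2G37640), EXPA4 (AT2G39700), EXPA5 (AT3G29030), EXPA6 (AT2G28950), EXPA8 (AT2G40610), EXPA10 (AT1G26770), EXPA11 (AT1G20190), EXPA15 (AT2G03090) and EXPA16 (AT3G55500). They are 10 of the 26 alpha-expansin genes and of 32992 genes with mRNA values. They were chosen by name with earlier results of the same mRNA values and H3K27me3 peaks in view, among them the level of EXPA8 in the hybrid against its parents. Their levels, peaks and hybrid differences are therefore a description: for the hybrid, counts of the 10 genes past the threshold used for all genes are given beside the share of all genes, and nothing is read from them. C24 clf against Col clf is tested, as the sources used here do not show that the genes were listed by that difference. The same libraries are the parents against which the hybrid was set, so its p-values may not be free of the choice of genes. No cut-off was stated: the lowest of the 10, EXPA15, had a mean of 7.06 RPKM over 9 libraries, and EXPA13 and EXPA9, which are not among the 10, had 9.72 and 9.62 RPKM.

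All material was shoots of Arabidopsis thaliana seedlings aged 14 days, grown on Murashige and Skoog medium containing 1% sucrose in 8 h of light at 22 °C and 16 h of dark at 18 °C. H3K27me3, the histone mark of genes silenced by Polycomb, was mapped in 2 libraries of each wild type (the accessions Col and C24 and their F1) and in 1 library of each corresponding clf mutant. The mRNA libraries, 3 per genotype, are of the mutants (Col clf, C24 clf, clf F1), and wild-type mRNA was not analysed here. Every mRNA library thus comes from plants without normal CURLY LEAF (CLF), a histone methyltransferase of the Polycomb complex. Col clf carries the T-DNA insertion SALK_139371, C24 clf carries a point mutation in the SET domain from a chemical mutant collection, and clf F1 is their cross. Accession and clf allele differ together, so their parts in a difference cannot be told apart.

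CLF mRNA itself was at 0.99 to 1.37 RPKM (reads per kilobase of gene, scaled to library size) in Col clf, 7.14 to 8.35 RPKM in C24 clf and 3.93 to 4.35 RPKM in clf F1. CLF was higher in C24 clf by a log2 difference of 1.97 (limma adjusted p 2.18e-08). The 4 shoot markers summed to between 19660 and 26110 RPKM per library, with LHCA3 lower in C24 clf (-0.92, limma adjusted p 5.47e-07) and RBCS1A at -0.20 (0.0401), or 0.12 with quantile normalization, and 5 of 6 root and root hair markers were at or below 0.1 RPKM everywhere. Estimated depth ran from 14.75 to 24.05 M reads. At the lowest level of any of the 10 genes in any library this comes to 87.7 reads per kilobase of EXPA15. An rRNA gene (AT3G41979) varied from 122 to 17796 RPKM between libraries and was lower in C24 clf (log2 difference -4.89, limma adjusted p 0.00102).

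The 10 genes supplied nearly all alpha-expansin mRNA. They made up between 91.8% and 93.1% of the family's summed RPKM in each of the 9 libraries. EXPA1 stood first over all libraries, with a mean of 56.4 RPKM, followed by EXPA6 (48.8), EXPA8 (34.4), EXPA3 (32.3), EXPA11 (24.4), EXPA4 (23.9), EXPA5 (17.9), EXPA10 (17.7), EXPA16 (12.8) and EXPA15 (7.06 RPKM). Ranges over the 9 libraries overlapped for every pair of neighbours in this order except EXPA3 and EXPA11, whose libraries spanned 29.45 to 34.19 and 18.90 to 29.20 RPKM. No annotated gene overlaps any of the 10, but how reads that match several expansins were counted is not stated in the sources used here. Of the other 16 family members, 12 stayed below 1 RPKM in all libraries and 8 of these were listed at 0 throughout, among them the lateral root gene EXPA17. The order of the 10 differed by group. EXPA1 led in Col clf with 87.9 ± 6.96 RPKM (SD, n = 3), EXPA6 led in C24 clf with 46.7 ± 3.16 RPKM (n = 3), and in clf F1 EXPA1, EXPA6 and EXPA8 lay close together at 45.5 ± 1.87, 45.1 ± 4.24 and 42.9 ± 3.92 RPKM (n = 3 each).

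**Figure D1:**
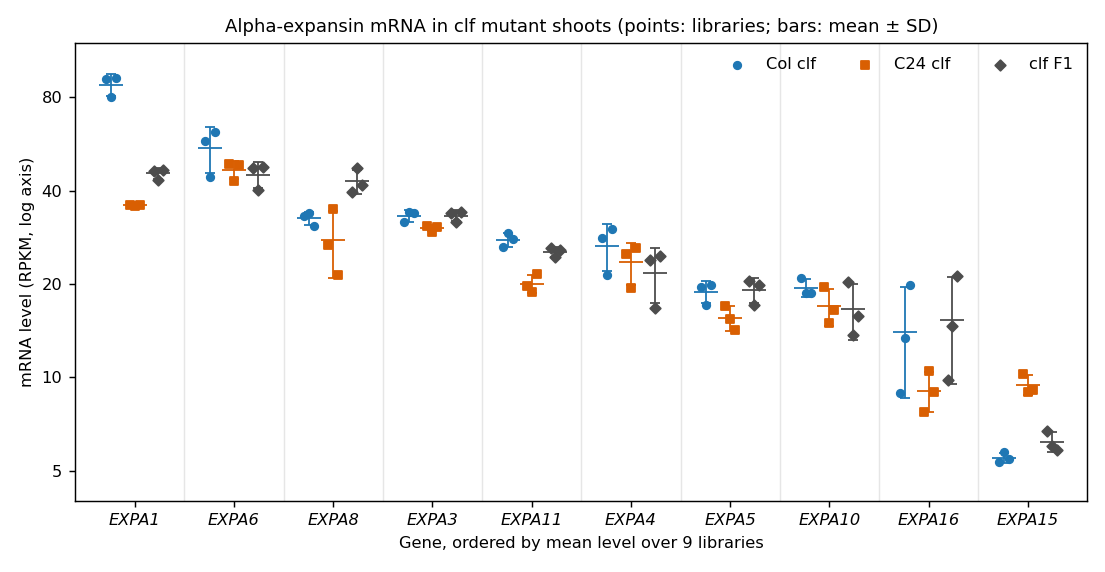
mRNA level (RPKM, log axis) of the 10 alpha-expansin genes in each library, grouped as Col clf, C24 clf or clf F1, bars standing at the mean ± SD of 3 libraries. EXPA1 stands apart between Col clf and C24 clf, EXPA8 is highest in the 3 clf F1 libraries, and EXPA15 is highest in the 3 C24 clf libraries.

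Summed over the 10 genes, the level was 320.7 ± 21.8 RPKM in Col clf, 235.1 ± 5.69 RPKM in C24 clf and 271.1 ± 14.5 RPKM in clf F1 (SD, n = 3 each). The groups did not overlap in this sum. EXPA1 alone took 27.4 ± 0.79% of it in Col clf, against 15.3 ± 0.31% in C24 clf and 16.8 ± 0.28% in clf F1. EXPA8 took 10.2 ± 1.18%, 11.8 ± 3.01% and 15.9 ± 2.27% in the same order. In whole shoots, fewer cells that make an expansin and less of its mRNA per cell cannot be told apart.

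Between the parents, alpha-expansin mRNA was mostly lower in C24 clf than in Col clf: EXPA1, EXPA11 and EXPA5 were lower, EXPA15 was higher and 6 genes did not pass the test. EXPA1 had 91.41, 79.88 and 92.41 RPKM in Col clf replicates 1, 2 and 3, and 36.03, 35.65 and 35.98 RPKM in C24 clf. Every Col clf library lay above every C24 clf library, and the C24 clf libraries differed from each other by less than 1 RPKM. The mean was 2.45-fold higher in Col clf, and the log2 difference of -1.27 (SE 0.071) on the log2(RPKM + 1) scale had a limma adjusted p of 6.15e-08. EXPA11 had 26.28, 29.20 and 27.90 RPKM in Col clf and 19.67, 18.90 and 21.51 RPKM in C24 clf, again without overlap, a log2 difference of -0.45 (SE 0.073, limma adjusted p 0.00039).

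EXPA15 went the other way. It had 5.33, 5.74 and 5.45 RPKM in Col clf and 10.28, 8.99 and 9.10 RPKM in C24 clf. All 3 C24 clf libraries were above all 3 of Col clf, with a mean 1.72-fold higher and a log2 difference of 0.68 (SE 0.084, limma adjusted p 5.39e-05). EXPA5, the brassinosteroid-responsive member, had 19.56, 17.12 and 19.91 RPKM in Col clf and 17.04, 15.41 and 14.20 RPKM in C24 clf. Its groups came close without overlapping, at 17.12 and 17.04 RPKM. The log2 difference of -0.26 (SE 0.094) passed narrowly, with a limma adjusted p of 0.0395. That call was lost with no filter on low genes (adjusted p 0.055) and on leaving out any of 4 libraries, Col clf replicate 1 (0.111) or 3 (0.118) and C24 clf replicate 2 (0.0877) or 3 (0.146), each from limma.

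The 6 genes that did not pass all had log2 differences below 0 for C24 clf against Col clf. EXPA16 was at 8.92, 13.37 and 19.85 RPKM in Col clf and 7.75, 10.47 and 8.98 RPKM in C24 clf. Its Col clf libraries spread over a wide range that takes in most of the C24 clf values, and the difference of -0.52 had an SE of 0.27 and a limma adjusted p of 0.137. EXPA8 was at 33.10, 33.93 and 30.84 RPKM in Col clf and 26.67, 34.86 and 21.38 RPKM in C24 clf. C24 clf replicate 2 was the highest of these 6 libraries and the other C24 clf libraries were the lowest, which gave a difference of -0.26 (SE 0.14, limma adjusted p 0.151). Without C24 clf replicate 2 the difference was -0.43 with a limma adjusted p of 0.0091, and without Col clf replicate 1 that of EXPA16 was -0.79 with an adjusted p of 0.0295.

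EXPA3 (-0.13, limma adjusted p 0.131), EXPA4 (-0.17, 0.43), EXPA6 (-0.21, 0.161) and EXPA10, the leaf growth gene (-0.19, 0.253), differed least. EXPA3 had 29.45 to 30.88 RPKM in C24 clf and 31.59 to 34.19 RPKM in Col clf, a gap without overlap but small. EXPA4, EXPA6 and EXPA10 overlapped between the parents. With quantile normalization EXPA3 and EXPA6 passed as lower (limma adjusted p 0.00699 and 0.0252), and EXPA6 also passed without Col clf replicate 2 (0.0138) and without the library of each group richest in rRNA (0.0259).

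Counted together, 4 of the 10 genes were called at the limma threshold of 0.05 for the adjusted p, EXPA15 higher and 3 others lower. Over all 17819 genes tested, 44.5% were called, 31.8% higher and 12.7% lower. The share called among the expansins was thus near that of all genes, and their direction was mostly the less common one. Their median log2 difference was -0.23, against 0.13 over all genes tested. With quantile normalization the median of all genes was 0.01, all genes split into 3833 higher and 3624 lower in place of 5675 and 2260, and the expansins gave 1 higher and 5 lower.

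**Figure D2:**
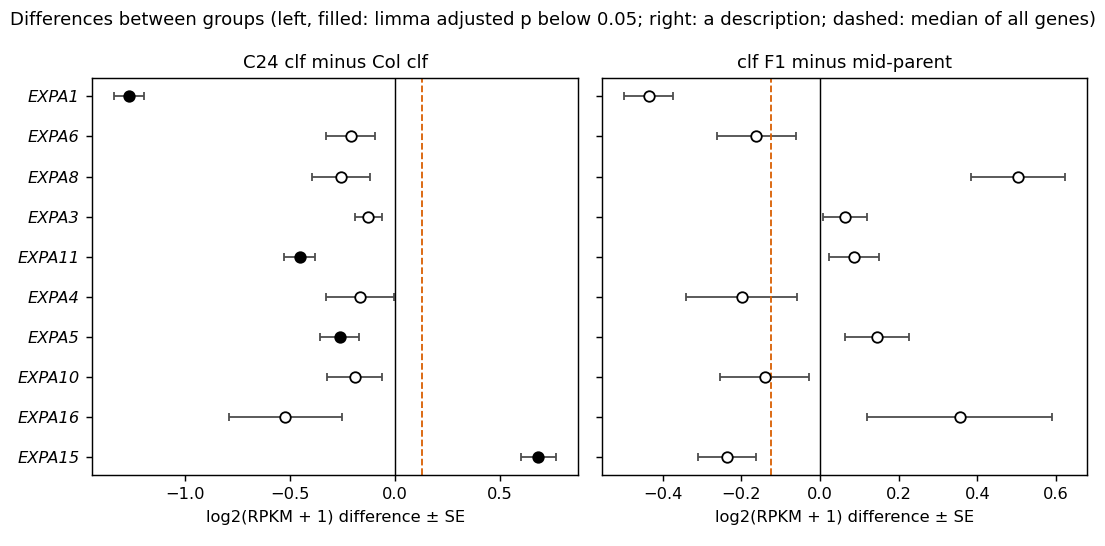
Differences in log2(RPKM + 1) with SE for C24 clf minus Col clf (left) and clf F1 minus the mid-parent (right), with points on the left filled for a limma adjusted p below 0.05, points on the right open as a description, and a dashed line at the median of all 17819 genes. On the left EXPA15 alone lies above 0, and on the right EXPA8 is the highest and EXPA1 the lowest of the 10.

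Libraries of the same replicate number moved together. EXPA1, EXPA4 and EXPA6 were lowest in replicate 2 of all 3 groups, EXPA8 was highest in replicate 2 of all 3, and EXPA16 was lowest in replicate 1 of all 3. Within a number, C24 clf was below Col clf in 3 of 3 numbers for EXPA1, EXPA3, EXPA4, EXPA5, EXPA6, EXPA10, EXPA11 and EXPA16, in 2 of 3 for EXPA8, and above it in 3 of 3 for EXPA15. With the replicate number as a block in the fit, 9 of the 10 genes were called, 1 higher and 8 lower, against 53.6% of all genes. The added calls were EXPA4 (limma adjusted p 0.0278), EXPA6 (0.0132), EXPA8 (0.0361), EXPA10 (0.046) and EXPA16 (0.0099), and EXPA3 was the gene without a call.

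Guard cell markers were read beside EXPA1, since EXPA1 acts in guard cells. KAT1, the potassium channel of guard cells, was lower in C24 clf, at 4.41 ± 0.137 RPKM against 8.35 ± 0.411 RPKM in Col clf (SD, n = 3 each; log2 difference -0.79, limma adjusted p 7.97e-06). FAMA (0.11, adjusted p 0.495) and MYB60 (-0.13, adjusted p 0.356) were not called by limma. The 3 markers summed to 26.97 to 34.06 RPKM in Col clf, 23.34 to 29.14 RPKM in C24 clf and 25.98 to 29.61 RPKM in clf F1, and the groups overlapped. The part of guard cell number in the EXPA1 difference was not tested. PYK10, the 1 root marker that was expressed, was higher in C24 clf (log2 difference 1.05, limma adjusted p 3.21e-07), while the root hair genes EXPA7 and EXPA18, EXPA17, LRX1 and COBL9 stayed at or below 0.1 RPKM.

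The hybrid asks a different question, whether the level of a gene lies at the arithmetic mean of its parents (the mid-parent) or away from it. Among the genes described, EXPA8 lay farthest above it and EXPA1 farthest below. The place of EXPA8 was known when the genes were chosen, so these values are a description. EXPA8 had 39.62, 47.22 and 41.78 RPKM in clf F1. These 3 libraries lay above all 6 parental libraries, the highest of which was 34.86 RPKM. The F1 mean was 1.42 times the mid-parent of 30.1 RPKM, a log2 difference of 0.50 (SE 0.12), and within each of the 3 replicate numbers the F1 was above the mid-parent. EXPA1 had 46.45, 43.30 and 46.61 RPKM in clf F1, between the parents and nearer to C24 clf. Its F1 mean was 0.734 times the mid-parent of 61.9 RPKM, a log2 difference of -0.44 (SE 0.063), and it was below the mid-parent in 3 of 3 numbers.

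For the other 8 genes the F1 lay closer to the mid-parent. EXPA16 had 9.83, 14.69 and 21.30 RPKM in clf F1, a spread as wide as in Col clf, and a log2 difference of 0.35 (SE 0.24). EXPA15 had 6.74, 6.03 and 5.84 RPKM, just above Col clf and well below C24 clf, with a difference of -0.24 (SE 0.074). The differences of EXPA5 (0.15), EXPA11 (0.09), EXPA3 (0.06), EXPA10 (-0.14), EXPA6 (-0.16) and EXPA4 (-0.20) were all within 0.20 of 0. Past the threshold lay 1 gene above and 1 below the mid-parent (5 in all with the replicate block), where 6.73% of all genes were called (25.1% with the block), 0.370% higher and 6.36% lower. As this contrast was known when the genes were chosen, nothing is read from that count. The median over all genes was -0.12, and that of the 10 genes was -0.04.

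Over 17 alternatives the log2 difference of EXPA8 from the mid-parent stayed between 0.43 and 0.60, and that of EXPA1 between -0.50 and -0.30. That of EXPA16 ran from 0.06 to 0.62, so EXPA8 did not lie farthest above the mid-parent in all of them. Among all genes, quantile normalization gave 101 higher and 292 lower in place of 66 and 1133.

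The hybrid was also set against each parent. These comparisons share the F1 libraries with each other and with the mid-parent. Against Col clf, EXPA1 had a log2 difference of -0.93. EXPA8 had a difference of 0.38 and EXPA4 and EXPA6 of -0.28 and -0.26 there. Past the threshold lay 1 of the 10 (5 with the replicate block), where 12.0% of all genes were called (19.9% with the block), 4.98% higher and 7.03% lower. Against C24 clf, the differences were 0.64 for EXPA8, 0.33 for EXPA1, 0.33 for EXPA11, 0.28 for EXPA5 and -0.54 for EXPA15. Past the threshold lay 5 of the 10, where 42.4% of all genes were called, 6.66% higher and 35.8% lower. Without the rRNA-richest libraries 3 lay past it, where 21.3% of all genes were called. More of the 10 lay past it with the replicate block (54.6% of all genes) and with quantile normalization (26.4%). Among all genes, quantile normalization gave 2314 higher and 2397 lower in place of 1186 and 6372. EXPA11 clf F1 libraries, at 26.21, 24.41 and 25.70 RPKM, lay between the parents and clear of both. EXPA5 clf F1 libraries, at 20.45, 17.13 and 19.86 RPKM, overlapped those of Col clf and lay clear of C24 clf.

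Genes whose profile over the 9 libraries was most like that of EXPA8 were sought by the root mean square difference of centred log2(RPKM + 1). The 5 nearest were AT4G16980 (0.107), LHCB2.2 (AT2G05070, 0.125), which encodes a light-harvesting antenna protein, the arabinogalactan protein gene AGP21 (AT1G55330, 0.125), GT18 (AT5G62220, 0.127) and the peptide gene RALFL33 (AT4G15800, 0.130). EXPA8 itself varied by 0.315 on this measure. AGP21 had 212.1 ± 1.45 RPKM in clf F1 against 168.3 ± 10.3 in Col clf and 134.5 ± 19.0 in C24 clf (SD, n = 3 each). For EXPA1 the nearest were AT1G63860 (0.083), AT4G11900 (0.097), FAF3 (AT5G19260, 0.105), AT4G28900 (0.109) and AT4G11630 (0.112), where EXPA1 itself varied by 0.539. These genes stood far below EXPA1 in level. In Col clf AT4G11630 was the highest of them, at 15.7 ± 1.34 RPKM. AT4G28900 was the lowest, at 1.44 ± 0.125 RPKM in Col clf and 0.037 ± 0.015 in C24 clf (SD, n = 3 each). This scale understates changes at such levels, so their fold changes can differ from that of EXPA1.

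H3K27me3 peaks were mapped over each gene. Of the 10, 4 had a peak over the gene in at least 1 of the 9 peak lists (against 29.3% of the genes tested for mRNA), EXPA5 in 6 lists, EXPA8 in 2, and EXPA1 and EXPA16 in 1 each. EXPA3, EXPA4, EXPA6, EXPA10, EXPA11 and EXPA15 had none, although the nearest peak to EXPA11 was 157 to 567 bp away in 7 lists. The lists differ in reach, from 4.32 Mb covered by 2898 peaks in wild-type Col replicate 2 to 16.72 Mb by 4851 peaks in wild-type Col replicate 1, so a missing peak in a short list carries less weight. The known Polycomb targets AG, STM, FUS3 and LEC2 had peaks in 5, 7, 9 and 7 lists, and the active shoot genes RBCS1A, RCA, LHCA3 and PSAD1 in 1, 0, 0 and 0.

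By list, peaks lay over 1 of the 10 genes in wild-type Col replicate 1 and 0 in replicate 2, where 15.7% and 4.09% of the 17694 mRNA-tested genes with a position had one. In wild-type C24 the counts were 2 and 1 in replicates 1 and 2, against 13.2% and 14.5% of genes. Wild-type F1 gave 1 and 0, against 13.8% and 7.09%. The clf lists of Col, C24 and the F1 gave 1, 2 and 2, against 11.9%, 12.3% and 12.9%. With 10 genes, these counts are near the background.

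EXPA5 carried a peak in replicate 1 of all 3 wild types and in all 3 clf mutants. The widest was in wild-type Col replicate 1, on chromosome 3 from 11011724 to 11014195 (TAIR10), over 78.9% of the gene with 1044 tags and a fold enrichment of 5.54, as the authors' peak caller gave it. In clf Col the peak ran from 11011974 to 11013752 over 67.5% of the gene with 418 tags, and in clf F1 from 11011866 to 11013776 over 72.4% with 394 tags. In clf C24 there were 2 shorter peaks, from 11011896 to 11012614 and from 11012830 to 11013975, over 32.8% and 28.4% of the gene. Replicate 2 of each wild type had no EXPA5 peak, and the nearest was 8215, 2789 and 8283 bp away in Col, C24 and the F1. EXPA5 was thus marked in some shoot libraries of every accession while its mRNA stood at 14.20 to 20.45 RPKM in the clf mutants.

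EXPA8 was marked in clf C24 and clf F1 and in no other list. The clf C24 peak lay on chromosome 2 from 16949035 to 16950643 (TAIR10), wholly within the gene and over 84.0% of it, with 240 tags, a score of 413.65 and a fold enrichment of 7.21. In clf F1 it ran from 16948860 to 16950654, over 93.7% of the gene, with 242 tags, a score of 211.58 and a fold enrichment of 5.14. These scores ranked 3342 of 6377 and 4514 of 6324 within their lists. Elsewhere the nearest peak was 8130 to 8987 bp away, clf Col included. The clf groups have 1 library each, so the pattern has no replicate check. It was shared by 35 of the 17694 genes tested for mRNA (0.198%). The pattern was read from EXPA8 itself, so this share is a description. Set beside the mRNA, clf C24 had both the peak and the lowest EXPA8 mean (27.6 ± 6.79 RPKM), while clf F1 had the peak and the highest mean (42.9 ± 3.92 RPKM; SD, n = 3 each).

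**Figure D3:**
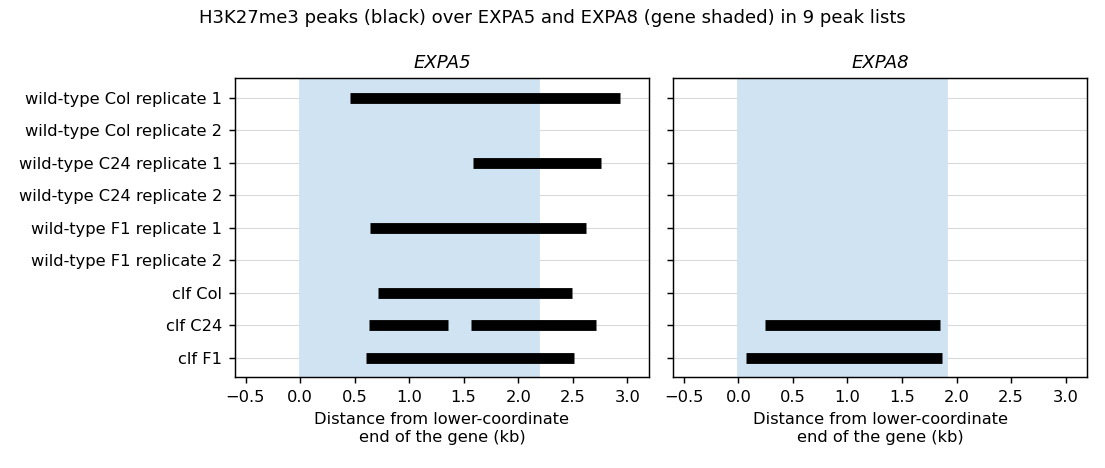
H3K27me3 peaks (black bars) over EXPA5 and EXPA8 in each of the 9 peak lists, by distance in kb from the lower-coordinate end of the gene, whose extent is shaded. EXPA5 has a peak in 6 lists that reaches beyond the upper end of the gene, and EXPA8 has one within the gene in clf C24 and clf F1 alone.

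The remaining peaks each covered less than 50% of their gene. That of EXPA1, in wild-type C24 replicate 2, covered 44.3% of the gene with 83 tags and a score of 72.46, where the lowest score in any list was 50, and the nearest peak in replicate 1 was 11717 bp away. The EXPA16 peak, in wild-type C24 replicate 1, covered 23.0% of the gene with 10.9% of its own length, and touched the neighbouring gene RBL (AT3G55510) with 4.4%. It had 618 tags, a score of 361.43 and a fold enrichment of 5.59. The peak nearest to EXPA16 was 629 and 576 bp away in replicate 1 of wild-type Col and F1. In clf Col, clf C24 and clf F1 it was 918, 703 and 1090 bp away.

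Of the 16 other alpha-expansins, 15 (93.8%) had a peak in at least 1 list, against 4 of the 10 described and 36.3% of all genes with a position. Their median was 6.5 of 9 lists, against 0 for the 10 and 0 for all genes. Among the 12 that stayed below 1 RPKM, 11 (91.7%) had a peak, with a median of 7 lists, against 44.4% of all genes below that level. EXPA2, which acts in seed germination, EXPA12 and EXPA24 were marked in all 9 lists, and EXPA17 in none although its mRNA was listed at 0. The root hair genes EXPA7 and EXPA18 were marked in 7 and 4 lists. EXPA13 and EXPA9, the other family members expressed above EXPA15, had peaks in 2 and 7 lists. EXPA21 to EXPA26 have consecutive gene IDs (AT5G39260 to AT5G39310), so they may not be separate cases in these counts. As the 10 genes were listed with their levels in view, the contrast between them and the rest of the family is a description and was not tested.

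**Figure D4:**
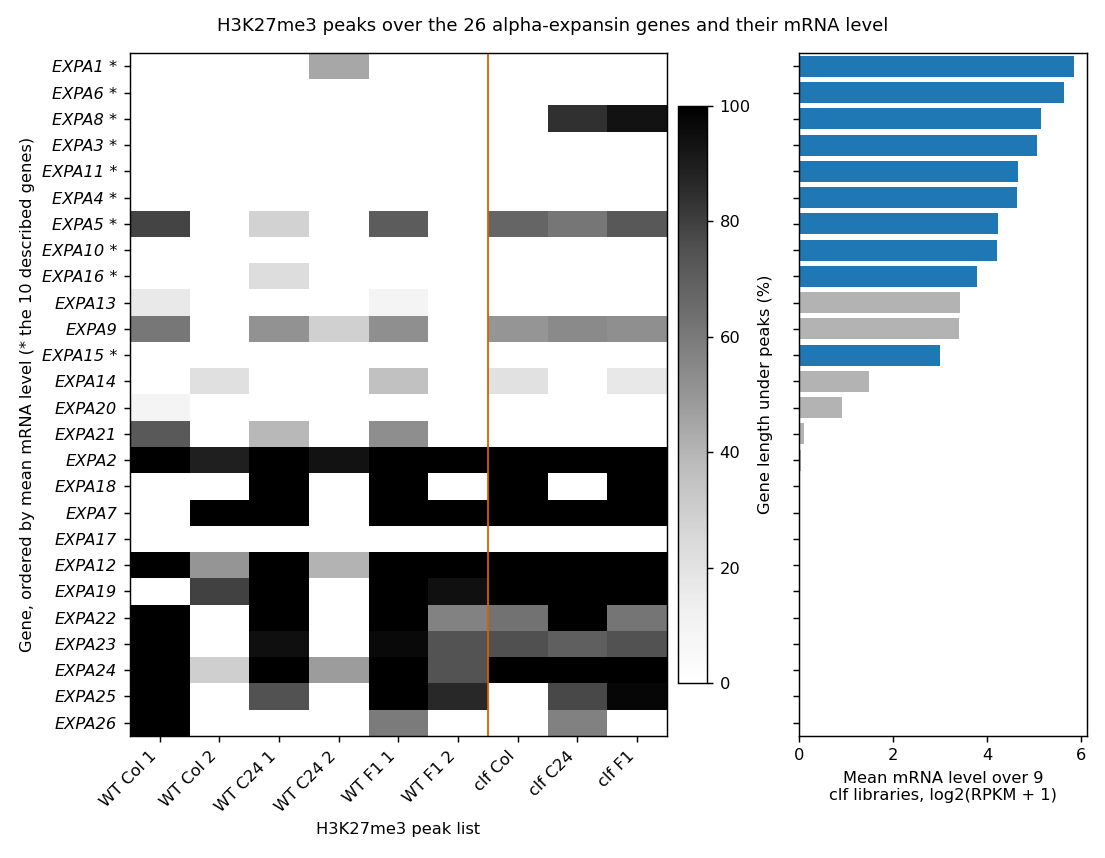
Share of each of the 26 alpha-expansin genes that lies under H3K27me3 peaks in the 9 lists (grey scale, %), with genes ordered by mean mRNA level in the clf libraries (bars, log2(RPKM + 1)) and the 10 described genes starred. Dark cells gather among the genes near 0 in mRNA, while among the expressed genes coverage reaches 93.7% in EXPA8, 78.9% in EXPA5 and 60.8% in EXPA9.

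Other genes of wall loosening and growth were read in the same comparison of C24 clf with Col clf, without a test between lists. Over all genes tested, 31.8% were called higher and 12.7% lower. In either direction, 41.8% were called with quantile normalization and 53.6% with the replicate block. The counts by list are a description beside these shares. Of 4 other alpha-expansins that could be tested, EXPA9 was lower in C24 clf, at 6.94 ± 0.644 RPKM against 11.6 ± 0.761 RPKM in Col clf (SD, n = 3 each; log2 difference -0.67, limma adjusted p 7.19e-05). Of 5 beta-expansins and expansin-like genes tested, 2 were lower, EXPB3 (-1.11, limma adjusted p 2.41e-05) and EXLB1 (-0.82, 0.000225), and 0 were higher. In these 3 genes no C24 clf library reached the Col clf range.

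XTH genes split, with 5 higher and 4 lower of 21 tested in C24 clf and a median of 0.12. XTH24 had 334.34, 289.48 and 316.78 RPKM in C24 clf against 84.50, 86.41 and 89.31 RPKM in Col clf, the largest rise among called XTH genes (1.84, limma adjusted p 5.20e-07). XTH17 was the lowest called (-1.40, limma adjusted p 0.000194), from 3.41 ± 1.00 RPKM in Col clf. The XTH split was 3 higher and 7 lower with quantile normalization and 10 higher and 4 lower with the replicate block.

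Of the acid growth genes, 4 were higher and 3 lower of 12 tested. The 4 were proton pump genes, AHA1 (0.30, limma adjusted p 0.000858), AHA2 (0.23, 0.0138), AHA8 (0.69, 3.26e-05) and AHA11 (0.48, 0.000306). The 3 were the pump gene AHA3 (-0.17, 0.0453) and SAUR23 (-0.48, 0.0312) and SAUR24 (-1.38, 0.00144). SAUR19 to SAUR24 are closely similar neighbours, so their values are uncertain. AHA1, AHA8, AHA11 and SAUR24 kept their calls in every alternative that tested them. AHA2 lost its call with quantile normalization, without the rRNA-richest libraries and on leaving out Col clf replicate 1. AHA3 kept its call in 8 of 17 alternatives and lost it on leaving out any 1 of the parental libraries or clf F1 replicate 2, while SAUR23 lost its call with no filter and on leaving out Col clf replicates 1 or 3 or C24 clf replicate 3, with limma adjusted p of up to 0.151, 0.19 and 0.119 for AHA2, AHA3 and SAUR23. Quantile normalization gave 3 higher and 4 lower, and leaving out Col clf replicate 1 gave 3 and 1.

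Growth regulators were 6 higher and 7 lower of 18 tested, or 4 and 9 with quantile normalization. ARL, which promotes cell expansion, was the highest called (1.00, limma adjusted p 0.000158), and IBH1, the inhibitor of HBI1, the lowest (-1.27, 1.85e-06). HBI1 fell as well, from 98.3 ± 3.49 RPKM in Col clf to 73.6 ± 4.37 RPKM in C24 clf (SD, n = 3 each; -0.41, limma adjusted p 0.000694). Among 6 cellulose synthesis genes, the cellulose synthase subunit gene CESA6 was higher (0.43, limma adjusted p 0.00123), and COB, which orients cellulose, and the endoglucanase gene KOR1 were lower (-0.41, 0.0305 and -0.27, 0.035). COB and KOR1 both lost their calls with no filter and on leaving out Col clf replicates 1 or 3 or C24 clf replicate 2, and KOR1 also on leaving out C24 clf replicate 1, with limma adjusted p of up to 0.122 for COB and 0.133 for KOR1. With the replicate block 4 cellulose genes were lower. The median differences were -0.03 for the other alpha-expansins, -0.06 for beta-expansins and expansin-like genes, -0.03 for acid growth, -0.05 for growth regulators and -0.18 for cellulose synthesis, against -0.23 for the 10 genes and 0.13 for all genes.

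**Figure D5:**
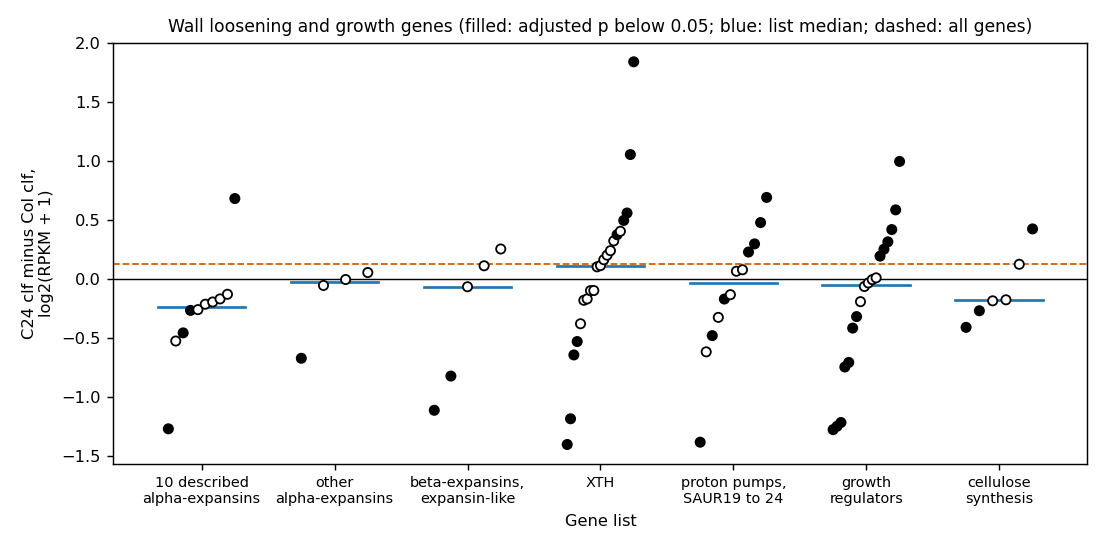
C24 clf minus Col clf difference in log2(RPKM + 1) for each tested gene of 7 lists, filled where the limma adjusted p is below 0.05, with the list median in blue and the median of all genes dashed. EXPA15 is the 1 alpha-expansin of the 10 above 0, while XTH, proton pump and growth regulator genes fall on both sides.

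In the hybrid, 6 of these genes were called against the mid-parent, a comparison in which 6.73% of all genes were called. The number tested in each list is given below, and no list was tested against all genes. EXLB1 was higher (0.52, limma adjusted p 0.0211, but 0.102 and 0.111 without clf F1 replicates 2 or 3, and kept in 13 of 17 alternatives), with 5.52, 6.87 and 6.66 RPKM in clf F1 against 5.22 to 5.78 in Col clf and 2.05 to 3.10 in C24 clf. XTH25 was lower (-0.69, limma adjusted p 0.00648), with 5.36, 3.71 and 4.47 RPKM in clf F1, below every parental library, and lost its call without the rRNA-richest libraries (0.0754). XTH24 (-0.46, limma adjusted p 0.043), HBI1 (-0.26, 0.036) and PIF3 (-0.35, 0.0254) were lower, and all 3 lost the call with quantile normalization (0.103, 0.119 and 0.123). They kept it in 6, 8 and 9 of 17 alternatives, and each lost it without Col clf replicate 1, C24 clf replicates 2 or 3, or clf F1 replicates 2 or 3, with adjusted p of up to 0.273, 0.176 and 0.163 over the alternatives. HBI1 had 75.40, 73.76 and 66.09 RPKM in clf F1, within or below the C24 clf range of 68.60 to 76.32 RPKM. Its inhibitor IBH1 was lower than the mid-parent as well (-0.35, limma adjusted p 0.0485). IBH1 had 4.09, 3.42 and 3.22 RPKM in clf F1, between C24 clf (2.08 to 2.82) and Col clf (7.04 to 7.45). The relation of either gene to EXPA8 was not tested. With no filter on low genes, 0 growth regulators were called against the mid-parent, IBH1 included. With a pseudocount of 0.1, and with a filter of 5 RPKM, 2 growth regulators were called lower. These were HBI1 and PIF3, so IBH1 lost its call in both settings. In this contrast the counts were 0 higher and 2 lower of 21 XTH genes, 0 and 3 of 18 growth regulators, 1 and 0 of 5 beta-expansins and expansin-like genes, and 0 of 12 acid growth, 6 cellulose and 4 other alpha-expansin genes by limma. With the replicate block, where 25.1% of all genes were called, XTH genes were 1 higher and 5 lower and growth regulators 2 and 7.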

How the data were processed

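mRNA values are RPKM as deposited by the authors, 1 file per library, with the unit read from the values. Per the submitters' processing notes, the tools named are TopHat and Bowtie and the build is TAIR10, versions not given. How reads were counted, strand and the peak caller are not stated in the sources used here. Of 34133 lines per file, 1141 lines of 567 repeated IDs were left out. The deposited peak lists, 1 per library, give the authors' tag counts (not normalized), score (at least 50) and fold enrichment per peak, used only to describe peaks within a list.

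The test took 17819 genes that reached 1 RPKM in 3 or more libraries. All 10 genes passed in every library. Values entered limma (version 3.58.1, R 4.3.3) as log2(RPKM + 1), with 3 group coefficients and a trended prior, and p-values were adjusted by Benjamini-Hochberg over all genes, with a threshold of 0.05. Differences on this scale understate changes of low genes. The mid-parent is the arithmetic mean of the fitted parental levels with a delta-method SE. Tests were tried on simulated data. Whether replicates are separate cultures is not labelled, so the spread behind the p-values may be technical.

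Genes of up to 400 bp gave the depth, from the step that 1 read makes. No count test was run, since gene lengths behind the RPKM are not stated. Replicate numbers, from the sample titles, pair the libraries: deviations from group means correlated between same-numbered libraries of different groups in all 9 pairs (r 0.169 to 0.426, median 0.297). The 18 other pairs had r of -0.275 to -0.002. As deviations were taken from group means, positive same-numbered pairs push the other pairs down on average. The lower values of those pairs are therefore no separate support for the pairing. The fit without the block was the main one.

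Gene positions came from the RefSeq table of TAIR10.1, whose nuclear positions were taken as shared with the TAIR10 peaks. All 123 listed gene IDs matched. That table has no strand or exons. A peak counted where it overlapped the gene by at least 1 base.

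The 10 genes, lists and rules were chosen with earlier results of these data known. From each other list, the called genes with the highest and lowest difference are named for C24 clf against Col clf and for the mid-parent. CLF, and the 5 genes most like EXPA8 and EXPA1, are named too. HBI1 against Col clf, AHA1, AHA2, AHA3, AHA11, SAUR23, KOR1 and unmarked or marked family members were named after their values were seen. So was IBH1 against the mid-parent. Alternatives were another pseudocount, 2 filters, quantile normalization, the replicate block, leaving out libraries, 2 groups alone, the mean of logs, and other peak rules.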

Additional observations from a re-analysis of the deposited data

How the results depend on the processing

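EXPA1, EXPA11 and EXPA15 were called for C24 clf against Col clf in all 17 alternatives, and none of the 10 genes changed direction in that comparison. The count of 4 called genes ran from 3 to 5 when 1 library was left out, where 36.4% to 46.5% of all genes were called. It was 9 with the replicate block, where 53.6% of all genes were called. With the block and quantile normalization together, an alternative chosen after seeing the data, it was 10, where 51% of all genes were called. The block changed the calls of EXPA4, EXPA6, EXPA8, EXPA10 and EXPA16 in this comparison.

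Counts of the 10 genes in the hybrid are descriptions. Against the mid-parent, the count of 2 was 1 with no filter, 1 with quantile normalization, 1 on dropping the rRNA-richest libraries, 5 with the replicate block, and 1 to 3 with 1 library left out. Against Col clf, the hybrid's count of 1 was 5 with the replicate block, 4 with block and quantile normalization, 2 on dropping the rRNA-richest libraries, and 1 to 2 with 1 library left out. Against C24 clf, the count of 5 was 3 on dropping the rRNA-richest libraries and 4 to 6 with 1 library left out. It was higher with the replicate block, with quantile normalization and with both. The shoot marker RBCS1A changed sign to 0.12 with quantile normalization, with or without the block. The causes were not tested.

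Among all genes, those higher and lower than the mid-parent numbered 66 and 1133. They were 42 and 511 with no filter, 101 and 292 with quantile normalization, 287 and 4185 with the replicate block, 8 and 81 on dropping the rRNA-richest libraries, and between 15 and 164 (without clf F1 replicate 3) and 132 and 3230 (without clf F1 replicate 1). Against Col clf, 888 and 1252 became 1363 and 2188 with the block, 1990 and 2011 with block and quantile normalization, 504 and 577 on dropping the rRNA-richest libraries, 635 and 775 without Col clf replicate 1 and 678 and 722 without Col clf replicate 3. Against C24 clf, 1186 and 6372 became 2314 and 2397 with quantile normalization, 795 and 3008 on dropping the rRNA-richest libraries, 943 and 4095 without C24 clf replicate 3 and 988 and 4017 without clf F1 replicate 3. For C24 clf against Col clf, 5675 and 2260 became 3833 and 3624 with quantile normalization, 4664 and 4419 with block and quantile normalization, and 3788 and 1845 on dropping the rRNA-richest libraries.

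A peak over at least 50% of the gene left 2 of the 10 genes in any list, 0 in wild-type C24 replicate 1 and 0 in replicate 2. A score of at least 100 left 0 in wild-type C24 replicate 2. Another rule, chosen after seeing the data, added 1000 bases on either side of the gene, which can only raise a count. It gave 3 of the 10 genes in replicate 1 of every wild type. Replicate 2 gave 2 genes for wild-type C24 and 0 for both other wild types. The mutant lists gave 4 genes for clf C24 and 3 each for clf F1 and clf Col. Shares of all genes were not worked out under any of these peak rules, so the counts have no background beside them. The planned window of 1000 bases before the start was not run, since gene strand was not used here. Peaks of the clf groups rest on 1 library each.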

Other observations

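EXPA16 was uneven between libraries of 1 group. Its highest library was above its lowest in Col clf at 19.85 against 8.92 RPKM and in clf F1 at 21.30 against 9.83 RPKM, while C24 clf libraries ran from 7.75 to 10.47 RPKM. Replicate 3 held the highest EXPA16 value in Col clf and clf F1, and replicate 2 in C24 clf.

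Wild-type Col replicate 1 and replicate 2 differed over family members with little or no mRNA. The longer list, replicate 1, had no peak over EXPA7 or EXPA19, while the shorter list, replicate 2, covered 100% and 79.5% of them. Replicate 1 covered 100% of EXPA22, EXPA23, EXPA25 and EXPA26, which replicate 2 left without a peak.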
